A study of Homo sapiens with 16 samples.

Results

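Untreated THP-1 cells were compared with untreated U937 cells, the 2 monocytic lines among the 4 human lines of a bulk RNA-seq series of 16 libraries. The comparison rested on the 4 untreated libraries of these lines and on the 12215 genes that reached at least 1 TPM (transcripts per 1000000, a level scaled for gene length and library total) in at least 2 of them, of 27311 genes listed. The THP-1 group was the THP-1 line with the genotype dCas9-KRAB, untreated, in 2 libraries. The U937 group was the U937 line labelled WT, untreated, also in 2 libraries. Both lines were grown in RPMI-1640 medium with heat-inactivated serum. The untreated libraries of Jurkat, a T cell line, and BJAB, a B cell line, both labelled WT, served to estimate the spread and to give levels in other cells. THP-1 and U937 libraries made after 4 h of lipopolysaccharide (LPS) showed whether a line difference was present in further libraries. The fit of those LPS libraries also took its spread from WT Jurkat given 5 µg/ml anti-CD3 and 100 ng/ml PMA, and from WT BJAB given 10 µg/ml anti-IgM and 4 µg/ml anti-CD40, each for 4 h in 2 libraries.

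THP-1 and U937 are leukaemia- and lymphoma-derived human lines that stand in for immature monocytes in the laboratory. Cells at this stage make the serine proteases of the azurophil granule, carry Fc and Toll-like receptors, and depend on transcription factors such as PU.1 and the C/EBP family. dCas9-KRAB is a catalytically dead Cas9 joined to a KRAB domain, which represses a gene when a guide RNA brings it there. THP-1 carried dCas9-KRAB and U937 did not, so a difference between the lines and an effect of this construct cannot be told apart in any value below. The labels do not say whether the paired libraries of a line came from separate cultures, so p-values measure only the spread between these libraries, which may be technical. In bulk RNA, fewer cells with a transcript and less of it per cell cannot be told apart.

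The THP-1 libraries held 7162373 and 8432224 whole reads, against 4125240 and 7333596 reads in the U937 libraries, as worked out from the smallest steps between TPM values. The pair of THP-1 libraries correlated at 0.990 over the tested genes on the log2(TPM + 1) scale, and the U937 pair at 0.989, where genes are not independent replicates. The SD of the difference within a pair was 0.331 in THP-1 and 0.359 in U937 on that scale. Among the stimulated libraries, the first U937 LPS library stood apart from the second, with an SD of 0.922.

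Many expressed genes differed between the lines, and how many passed the test depended on the libraries used for the spread. limma, with the Benjamini-Hochberg adjustment over all 12215 genes and a threshold of 0.05, called 7159 of them, 58.6%. Of these, 3631 were higher in THP-1, 29.7% of the tested genes, and 3528 were lower in THP-1, 28.9%. A log2 difference of at least 1 was also reached by 2016 genes higher in THP-1 (16.5%) and 1642 lower in THP-1 (13.4%), together 29.9%. With the spread estimated over all 16 libraries, stimulated ones included, 3624 genes were called at the same threshold, 2022 higher and 1602 lower in THP-1. Both libraries of one line lay above both of the other at 9903 genes, 81.1% of those tested. Those large shares, from the fit over the 8 untreated libraries, are the background for every count below: a list with 58.6% of its members called is like any other set of genes here. The median log2 difference over all tested genes was 0.0020, and the median size of a difference, regardless of sign, was 0.59.

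The large differences were not symmetrical. A log2 difference of at least 5 was reached by 78 genes higher in THP-1 and 30 lower in THP-1. A level of at least 10 TPM in both THP-1 libraries with under 0.1 TPM in both U937 libraries was seen at 129 genes, of which 124 were at 0 in U937. The reverse pattern was seen at 13 genes, of which 11 were at 0 in THP-1. Genes higher in THP-1 by at least 1 held 13.8% and 13.7% of all TPM in the THP-1 libraries, against 3.73% and 3.86% in U937. Genes lower in THP-1 by at least 1 held 3.73% and 3.86% in the THP-1 libraries, against 12.1% and 12.2% in U937. The filter left 1673 genes that passed in exactly 2 of the 4 libraries, with a median mean level of 1.70 TPM, while 833 genes with 1 library at 1 TPM were not tested and had a median of 0.615 TPM. A gene that passed through 1 line alone had to differ, so counts among low genes are descriptions.

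**Figure D1:**
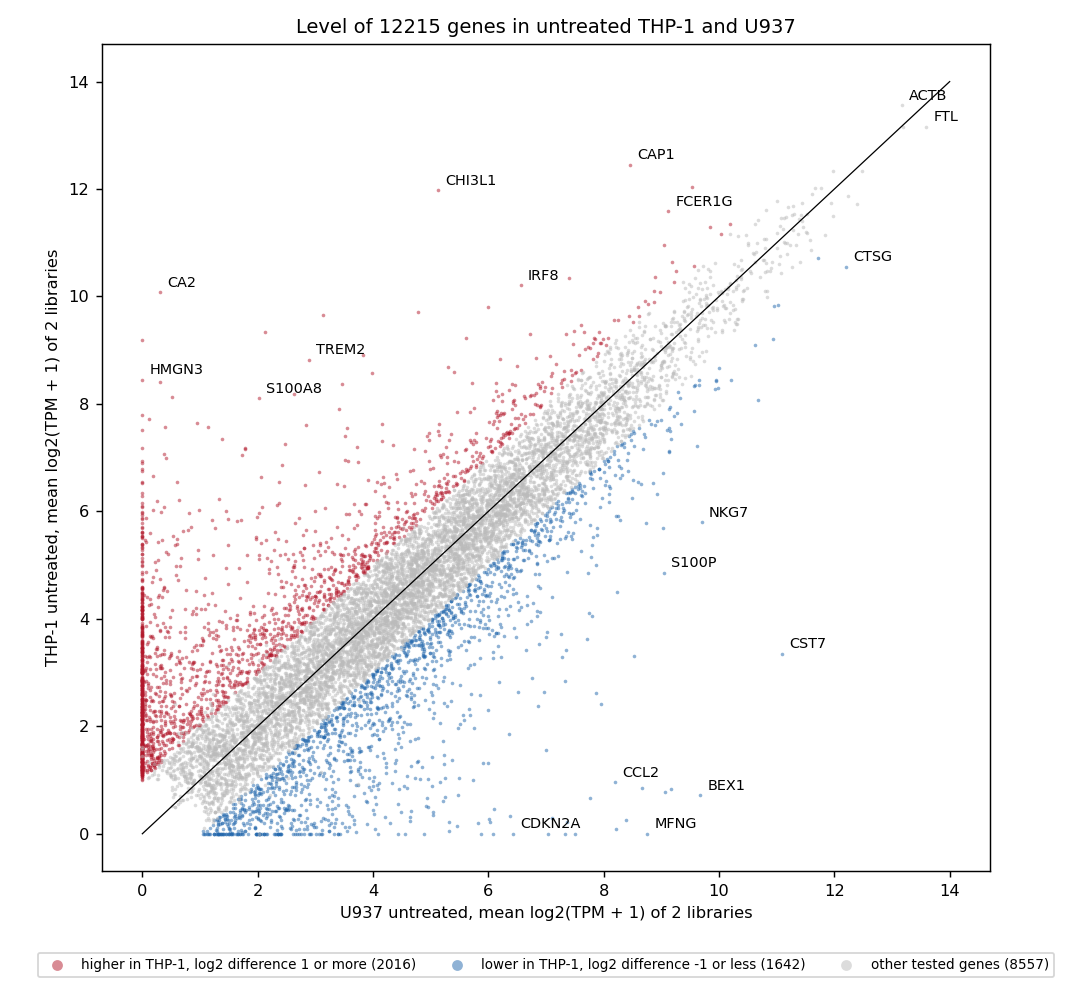
Mean log2(TPM + 1) of each of the 12215 tested genes in untreated THP-1 (vertical axis, 2 libraries) and untreated U937 (horizontal axis, 2 libraries), with 2016 genes higher and 1642 lower in THP-1 by at least 1 coloured. The column of points at 0 on the U937 axis is denser than the row at 0 on the THP-1 axis.

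Markers were read first against the monocytic label. All 14 monocytic markers were at 1 TPM or more in both THP-1 libraries, against 11 of 14 in U937. Their sum was 5895 to 6158 TPM in THP-1 and 3813 to 4145 TPM in U937, and 2 genes made up most of it. FCER1G, an Fc receptor chain, had 3123 and 3045 TPM in THP-1, against 543 and 563 TPM in U937. ELANE, neutrophil elastase, went the other way, with 1655 and 1553 TPM in THP-1, against 2599.8 and 2835 TPM in U937. The direction of the sum thus rested on FCER1G. The 3 markers under 1 TPM in both U937 libraries were CD14, the LPS co-receptor, ITGAM, an integrin chain of complement receptor 3, and MPO, myeloperoxidase. CD14 had 6.31 and 5.42 TPM in THP-1, against 0 TPM in both U937 libraries. ITGAM had 7.26 and 8.97 TPM in THP-1, against 0.901 and 0.760 TPM in U937. MPO had 1.40 and 2.17 TPM in THP-1, against 0.665 and 0 TPM in U937, close to the limit of detection in both lines. CSF1R, the receptor for macrophage colony-stimulating factor, had 57.8 and 54.8 TPM in THP-1, against 2.48 and 2.06 TPM in U937, and CD68, a late endosomal protein of macrophages, had 227 and 216 TPM in THP-1, against 71.4 and 73.5 TPM in U937. SPI1, which encodes PU.1, had 40.0 and 33.9 TPM in THP-1, against 19.7 and 20.7 TPM in U937 (log2 difference 0.83, adjusted p = 0.00820 by limma, lost when the first library of either line was left out). CD33, a myeloid sialic acid-binding receptor, did not pass the test, with 131 and 127 TPM in THP-1, against 135 and 165 TPM in U937. CEBPA, a myeloid C/EBP factor, did not pass it either, with 66.6 and 69.7 TPM in THP-1, against 60.3 and 64.3 TPM in U937.

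T cell markers summed to at most 0.625 TPM in THP-1 and 1.85 TPM in U937, and CD3D, CD3E, CD3G and CD8A were at 0 in all 4 libraries. The B cell list summed to 6.70 to 7.41 TPM in THP-1 and 9.42 to 20.8 TPM in U937, with MS4A1, the CD20 gene, at 0. Among markers of other blood lineages, a few genes were high in U937 while other defining markers were at 0. The natural killer list summed to 57.9 to 58.0 TPM in THP-1 and 836 to 837 TPM in U937, nearly all of it NKG7, a cytotoxic granule membrane protein, with NCR1 at 0. The mast cell, basophil and eosinophil list summed to 0.391 to 1.14 TPM in THP-1 and 331 to 340.3 TPM in U937, nearly all of it the tryptase gene TPSAB1. CPA3, mast cell carboxypeptidase, and CLC were at 0, and TPSB2, a tryptase gene outside that marker list, had 0 TPM in both THP-1 libraries, against 169 and 192 TPM in U937. The erythroid and megakaryocytic list summed to 0.376 to 0.622 TPM in THP-1 and 10.3 to 10.6 TPM in U937, in U937 all of it KLF1, an erythroid transcription factor, with HBB, HBA1, ALAS2, GATA1 and PF4 at 0.

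The genes named below follow a fixed rule. It first took the 15 largest log2 differences in each direction among called genes with at least 20 TPM in the higher line. These also had to have both libraries of one line above both of the other. It then took the 6 largest TPM differences in each direction, the largest called differences of each gene list, and a few genes known from these lines. Differences are on the log2(TPM + 1) scale, THP-1 minus U937, which understates the change of low genes. Where a line had 0 reads in both libraries, the fold is a lower bound against a floor of 3 reads over the group. Counts for a gene list cover only its members that passed the filter on low values, and a member that passed through 1 line alone had to differ.

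The start regions of the genes with the largest differences show the sequence around which their transcription begins. Of the 30 genes with the largest differences, 17 had a start region in the RefSeq table for GRCh38.p14, and the 2 largest differences in each direction with a single region are shown, from 250 bases before to 50 bases after the annotated start. They are written 5′ to 3′ along the gene's strand, in lower case with CpG dinucleotides in capitals. HMGN3 lies at chr6:79234633-79234932 on the minus strand and TGFBI at chr5:136028738-136029037 on the plus strand, both higher in THP-1. BEX1 lies at chrX:103064122-103064421 and IL2RG at chrX:71111528-71111827, both on the minus strand and both lower in THP-1.
HMGN3: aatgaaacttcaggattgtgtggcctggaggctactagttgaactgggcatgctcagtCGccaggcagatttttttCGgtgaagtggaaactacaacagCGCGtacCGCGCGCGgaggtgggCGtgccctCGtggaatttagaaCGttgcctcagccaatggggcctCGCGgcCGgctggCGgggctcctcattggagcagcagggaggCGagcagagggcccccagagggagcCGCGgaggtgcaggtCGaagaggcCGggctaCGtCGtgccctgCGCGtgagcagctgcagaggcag
TGFBI: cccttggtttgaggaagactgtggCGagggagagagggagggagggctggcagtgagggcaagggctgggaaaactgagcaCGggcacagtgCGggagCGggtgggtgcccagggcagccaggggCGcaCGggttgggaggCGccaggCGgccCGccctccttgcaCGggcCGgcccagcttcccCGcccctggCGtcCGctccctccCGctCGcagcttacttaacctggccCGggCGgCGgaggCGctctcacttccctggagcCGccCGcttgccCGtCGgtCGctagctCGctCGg
BEX1: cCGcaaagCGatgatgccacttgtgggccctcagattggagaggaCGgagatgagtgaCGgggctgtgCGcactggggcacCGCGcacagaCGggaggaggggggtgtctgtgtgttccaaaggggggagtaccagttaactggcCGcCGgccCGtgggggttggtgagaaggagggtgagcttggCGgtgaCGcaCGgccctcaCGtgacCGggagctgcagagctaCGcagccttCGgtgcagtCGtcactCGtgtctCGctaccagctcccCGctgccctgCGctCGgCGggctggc
IL2RG: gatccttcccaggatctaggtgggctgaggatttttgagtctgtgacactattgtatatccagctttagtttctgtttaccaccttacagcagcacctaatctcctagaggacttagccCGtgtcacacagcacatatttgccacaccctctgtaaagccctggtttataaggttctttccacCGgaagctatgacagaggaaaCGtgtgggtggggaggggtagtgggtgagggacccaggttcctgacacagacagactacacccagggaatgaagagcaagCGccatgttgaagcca
The dinucleotide CG, which reads the same on both strands, occurred 24 times in the HMGN3 region, 27 times in TGFBI, 25 times in BEX1 and 4 times in IL2RG. The GC content was 63.3% at HMGN3, 72.7% at TGFBI, 67.0% at BEX1 and 50.3% at IL2RG. HMGN3, TGFBI and BEX1 had a GC content over 50% and an observed to expected CpG ratio of at least 0.6, and so did 46.8% of all 35116 regions of this length in the table. IL2RG had a ratio of 0.211. Gene expression was measured here, and methylation or binding at these regions was not analysed.

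The genes highest in THP-1 relative to U937 were mostly silent in U937. Both THP-1 libraries were above both U937 libraries at each of the 15, because the naming rule required it. CA2, which encodes carbonic anhydrase II, had 1054 and 1108 TPM in THP-1, against 0 and 0.541 TPM in U937 (log2 difference 9.77 ± 0.22, SE, limma adjusted p = 6.24e-08). HMGN3, a nucleosome-binding protein of the high mobility group, had 343 and 356 TPM in THP-1, against 0 TPM in both U937 libraries (log2 difference 8.45 ± 0.095, SE, limma adjusted p = 3.06e-09), at least 909-fold higher in THP-1. TGFBI, an extracellular matrix protein induced by TGF-beta, had 345 and 337 TPM in THP-1, against 0.381 and 0.107 TPM in U937 (log2 difference 8.11 ± 0.18, SE, limma adjusted p = 6.06e-08). These genes separated the lines almost as on and off. GGH, gamma-glutamyl hydrolase of folate metabolism, had 202 and 239 TPM in THP-1, against 0 TPM in both U937 libraries, at least 585-fold higher in THP-1 (adjusted p = 3.25e-08 by limma). SERPINF1, pigment epithelium-derived factor, had 218 and 202 TPM in THP-1, against 0 and 0.161 TPM in U937 (log2 difference 7.61). SDCBP, the scaffold protein syntenin, had 261 and 299 TPM in THP-1, against 0.408 and 0.459 TPM in U937 (log2 difference 7.61). SDC2, the cell surface proteoglycan syndecan-2, whose family binds syntenin, showed the same on and off split, with 171 and 209 TPM in THP-1, against 0.460 and 0.172 TPM in U937 (log2 difference 7.18).

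Among the remaining genes high in THP-1, 3 encode metabolic enzymes. PYCR1, an enzyme of proline synthesis in mitochondria, had 118 and 127 TPM in THP-1, against 0 TPM in both U937 libraries, at least 498-fold higher in THP-1. SPR, sepiapterin reductase of tetrahydrobiopterin synthesis, had 105 and 133 TPM in THP-1, against 0 TPM in both U937 libraries, at least 309-fold higher in THP-1. ACOT2, a mitochondrial acyl-CoA thioesterase, had 112 and 106 TPM in THP-1, against 0 TPM in both U937 libraries, at least 441-fold higher, although its near copy ACOT1 can take or lose uniquely aligned reads. BEX3, a small brain-expressed X-linked gene, had 146 and 143 TPM in THP-1, against 0 TPM in both U937 libraries, at least 346-fold higher in THP-1. The related gene BEX1 went the other way. PPP1R27, a regulatory subunit of protein phosphatase 1, had 624 and 673 TPM in THP-1, against 2.67 and 4.14 TPM in U937 (log2 difference 7.22). PDLIM1, a PDZ and LIM domain protein of the actin cytoskeleton, had 128 and 139 TPM in THP-1, against 0.676 and 0 TPM in U937 (log2 difference 6.70). CHI3L1, a secreted chitinase-like glycoprotein of macrophages, was the most abundant of these genes in THP-1, with 4125 and 3964 TPM in THP-1, against 35.5 and 32.7 TPM in U937 (log2 difference 6.85 ± 0.13, SE, limma adjusted p = 4.44e-08).

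By the same rule, both U937 libraries were above both THP-1 libraries at each of the 15 genes with the largest differences towards U937. BEX1 had 0.695 and 0.598 TPM in THP-1, against 759.8 and 879 TPM in U937 (log2 difference -8.96 ± 0.13, SE, limma adjusted p = 9.07e-09). MFNG, a Fringe glycosyltransferase that modifies Notch receptors, had 0 TPM in both THP-1 libraries, against 417 and 445 TPM in U937 (log2 difference -8.75 ± 0.095, SE, limma adjusted p = 3.06e-09), at least 2192-fold lower in THP-1. IL2RG, the common gamma chain of receptors for interleukin-2 and related cytokines, had 1.17 and 0.336 TPM in THP-1, against 522 and 550.0 TPM in U937 (log2 difference -8.30 ± 0.29, SE, limma adjusted p = 3.74e-07). All 3 were close to absent from THP-1 and abundant in U937. TPSAB1 had 0 and 0.432 TPM in THP-1, against 330.2 and 340.2 TPM in U937 (log2 difference -8.13), and TPSB2 had 0 TPM in both THP-1 libraries, against 169 and 192 TPM in U937, at least 504-fold lower in THP-1. Both encode mast cell tryptases that are near copies of each other, so their separate levels are uncertain. CST7, cystatin F, an inhibitor of granule proteases, was the most abundant of these genes in U937, with 9.02 and 9.43 TPM in THP-1, against 2112 and 2241 TPM in U937 (log2 difference -7.73 ± 0.16, SE, limma adjusted p = 4.56e-08).

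Of 12 tested C-type lectin genes with a CLEC symbol, 4 were higher and 7 lower in THP-1, with a median log2 difference of -1.21. The 4 CLEC genes higher in THP-1 were CLEC10A, CLEC11A, CLEC2D and CLEC4G, named after their values were seen. CLEC11A, a secreted growth factor, was the most abundant of them, with 274 and 298 TPM in THP-1, against 103 and 109 TPM in U937. CLEC2B, an activation-induced lectin, had 0.588 and 1.01 TPM in THP-1, against 581 and 566 TPM in U937 (log2 difference -8.33). CLEC2A, its relative, had 0 TPM in both THP-1 libraries, against 159 and 162 TPM in U937, at least 462-fold lower in THP-1. CLECL1 had 0.348 and 0 TPM in THP-1, against 173 and 154 TPM in U937 (log2 difference -7.14). CLEC5A, a myeloid lectin that signals through DAP12, lies on a different chromosome from those 3 and had 0.509 and 0 TPM in THP-1, against 139 and 136 TPM in U937 (log2 difference -6.81). CCL2, the chief monocyte chemoattractant, had 2.81 and 0 TPM in THP-1, against 275 and 314 TPM in U937 (log2 difference -7.24 ± 0.52, SE, limma adjusted p = 1.29e-05). IL32, an inflammatory cytokine of human cells, had 1.41 and 0.348 TPM in THP-1, against 372 and 442 TPM in U937 (log2 difference -7.82), and RETN, resistin, had 0.627 and 0.539 TPM in THP-1, against 201 and 235 TPM in U937 (log2 difference -7.11). CCL2 was at 0 in the second THP-1 library and above 0 in the first. TMEM163, a zinc transporter of vesicles, had 0 and 0.136 TPM in THP-1, against 306 and 283 TPM in U937 (log2 difference -8.11). EMD, the inner nuclear membrane protein emerin, is made by most cells, but had 0 TPM in both THP-1 libraries, against 132 and 129 TPM in U937, at least 411-fold lower in THP-1.

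**Figure D2:**
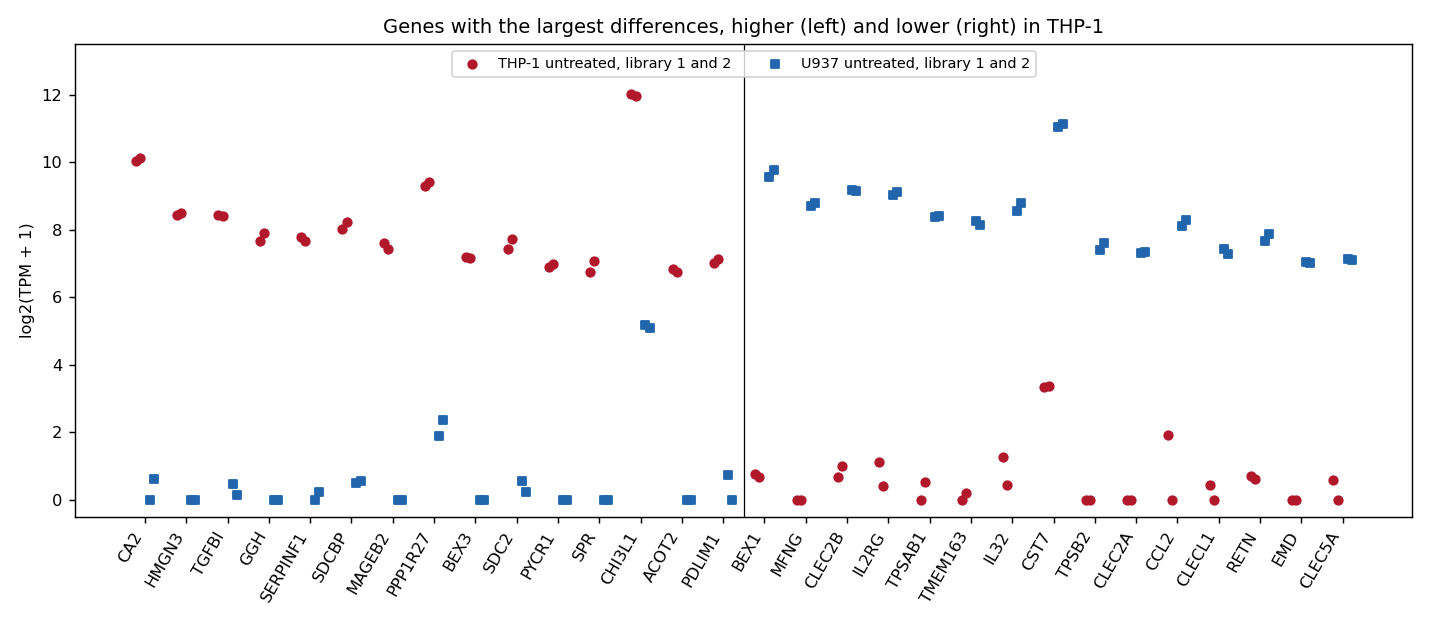
log2(TPM + 1) in each untreated library (vertical axis) of the 15 genes with the largest differences higher in THP-1 (left) and the 15 lower in THP-1 (right); circles are THP-1 libraries and squares U937 libraries. The naming rule took only genes at which the groups do not overlap. Of the 30 genes, CHI3L1 and CST7 are the only 2 above log2 3 in all 4 libraries.

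In absolute amount, a handful of abundant transcripts moved most. CAP1, a regulator of actin turnover, had 5679.7 and 5508 TPM in THP-1, against 346 and 356 TPM in U937 (log2 difference 3.99 ± 0.10, SE, limma adjusted p = 1.18e-07). PPT1, a lysosomal thioesterase, had 4142 and 4300.2 TPM in THP-1, against 721 and 755 TPM in U937 (log2 difference 2.51 ± 0.099, SE, limma adjusted p = 6.35e-07). LGALS1, the secreted lectin galectin-1, had 2697 and 2348 TPM in THP-1, against 891 and 940.1 TPM in U937 (log2 difference 1.46, adjusted p = 1.61e-04 by limma). These lay well apart between the lines. ACTB, beta-actin, had 12406 and 11688 TPM in THP-1, against 9599 and 8885 TPM in U937 (log2 difference 0.38), and FTL, ferritin light chain, had 9414 and 8856 TPM in THP-1, against 12814 and 11853 TPM in U937 (log2 difference -0.43). The ACTB and FTL calls were small and were lost when single libraries were left out. RPS4X, a ribosomal protein encoded on the X chromosome, had 1665 and 1703 TPM in THP-1, against 3557 and 3207 TPM in U937 (adjusted p = 4.22e-05 by limma). B2M, the light chain of MHC class I, had 3429 and 3290.2 TPM in THP-1, against 5642 and 5101 TPM in U937 (log2 difference -0.68, a call lost when the spread was estimated over all 16 libraries).

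Granule proteins set the lines apart gene by gene rather than as a block. Of 13 tested genes of a list named for azurophil granule proteins, 5 were higher and 6 lower in THP-1. The median log2 difference was -0.07, against 0.0020 over all tested genes. Besides the granule proteases, the list held CST7, MS4A3, RNASE2, RNASE3 and SERPINB1. The summed level of the list was 9722 and 9108 TPM in THP-1, against 13815 and 14182 TPM in U937. CST7 alone added 9.02 and 9.43 TPM to it in THP-1, against 2112 and 2241 TPM in U937. AZU1, the antimicrobial protease homologue azurocidin, had 1107 and 1098 TPM in THP-1, against 461 and 474 TPM in U937 (log2 difference 1.24 ± 0.11, SE, limma adjusted p = 4.09e-05). PRTN3, proteinase 3, had 1567 and 1461 TPM in THP-1, against 808 and 890.2 TPM in U937 (log2 difference 0.83). ELANE, neutrophil elastase, had 1655 and 1553 TPM in THP-1, against 2599.8 and 2835 TPM in U937 (log2 difference -0.76). CTSG, cathepsin G, had 1589.9 and 1424 TPM in THP-1, against 4716 and 4656 TPM in U937 (log2 difference -1.64 ± 0.13, SE, limma adjusted p = 2.61e-05). AZU1, PRTN3 and ELANE are neighbours on chromosome 19, yet AZU1 and PRTN3 were higher and ELANE lower in THP-1. RNASE2, eosinophil-derived neurotoxin, had 1222 and 1229.8 TPM in THP-1, against 621 and 567 TPM in U937 (log2 difference 1.05). RNASE3, eosinophil cationic protein and a close relative of RNASE2, had 45.2 and 56.2 TPM in THP-1, against 216 and 257 TPM in U937 (log2 difference -2.20). LYZ, lysozyme, did not pass the test, with 321 and 258 TPM in THP-1, against 289 and 314 TPM in U937. PRTN3, ELANE and LYZ were named after their values were seen.

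Monocyte surface and maturation genes were mostly higher in THP-1. Of 19 tested, 12 were higher and 4 lower, with a median of 1.41, and their sum was 1491 and 1396 TPM in THP-1 against 452 and 501 TPM in U937. TREM2, a lipid-sensing receptor of macrophages, had 473 and 433 TPM in THP-1, against 4.56 and 8.83 TPM in U937 (log2 difference 5.94 ± 0.26, SE, limma adjusted p = 1.11e-06). LILRB4, an inhibitory leukocyte immunoglobulin-like receptor, had 72.2 and 72.7 TPM in THP-1, against 0.408 and 0 TPM in U937 (log2 difference 5.95). CCR2, the receptor for CCL2, had 149 and 135 TPM in THP-1, against 4.03 and 1.34 TPM in U937 (log2 difference 5.38 ± 0.34, SE, limma adjusted p = 7.88e-06). The CCR2 ligand CCL2 went the other way, as given above. LILRB2 and LILRB1, inhibitory receptors of the same family as LILRB4, were lower in THP-1, LILRB2 with 0.380 and 0.899 TPM in THP-1, against 13.4 and 10.3 TPM in U937 and LILRB1 with 2.42 and 0.968 TPM in THP-1, against 13.0 and 9.02 TPM in U937. CLEC12A, an inhibitory myeloid lectin, had 7.14 and 5.14 TPM in THP-1, against 68.5 and 74.8 TPM in U937 (log2 difference -3.36).

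Transcription factors and progenitor receptors differed at single genes. Of 25 tested myeloid factors, 9 were higher and 6 lower, with a median of 0.02. IRF8, which drives monocyte and dendritic cell development, had 1223 and 1141 TPM in THP-1, against 88.9 and 98.1 TPM in U937 (log2 difference 3.65 ± 0.11, SE, limma adjusted p = 2.16e-07). CEBPE, a factor of granulocyte maturation, had 0.387 and 1.50 TPM in THP-1, against 21.8 and 22.5 TPM in U937 (log2 difference -3.64). CEBPD, a C/EBP factor of inflammatory responses, had 4.31 and 8.86 TPM in THP-1, against 0 TPM in both U937 libraries, at least 14.9-fold higher in THP-1. Of 10 tested progenitor and growth factor receptors, 4 were higher and 4 lower. FLT3, a receptor tyrosine kinase of early progenitors, had 66.0 and 63.2 TPM in THP-1, against 0.538 and 1.51 TPM in U937 (log2 difference 5.06 ± 0.24, SE, limma adjusted p = 1.70e-06), and IL3RA, the interleukin-3 receptor alpha chain, had 19.01 and 25.1 TPM in THP-1, against 1.25 and 0.615 TPM in U937 (log2 difference 3.58). CD44, the hyaluronan receptor, had 4.31 and 3.55 TPM in THP-1, against 61.6 and 64.0 TPM in U937 (log2 difference -3.70 ± 0.17, SE, limma adjusted p = 1.26e-06). CD47, the "do not eat me" ligand of SIRP-alpha, had 40.8 and 49.7 TPM in THP-1, against 229.8 and 220.1 TPM in U937 (log2 difference -2.30).

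Of 13 tested HOXA, HOXB and partner genes, 5 were higher and 6 lower in THP-1. MEIS1, a cofactor of HOXA proteins in leukaemia, had 3.58 and 0.892 TPM in THP-1, against 122 and 132 TPM in U937 (log2 difference -5.45 ± 0.40, SE, limma adjusted p = 1.43e-05). HOXA10 had 17.5 and 18.7 TPM in THP-1, against 58.7 and 52.9 TPM in U937 (log2 difference -1.57). HOXA9, its neighbour and like it a HOXA gene active in leukaemia, was higher in THP-1 and is given after its values were seen, with 13.99 and 11.7 TPM in THP-1, against 9.35 and 6.57 TPM in U937 (log2 difference 0.64). HOXB6 and HOXB7, neighbours in the HOXB cluster, were at 0 in both U937 libraries, with 12.0 and 12.9 TPM in THP-1 for HOXB6 and 10.3 and 9.63 TPM for HOXB7. MEF2C, a transcription factor of myeloid progenitors, had 113 and 116 TPM in THP-1, against 4.36 and 4.33 TPM in U937 (log2 difference 4.44 ± 0.14, SE, limma adjusted p = 2.48e-07).

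Genes of known lesions in these lines were read next. THP-1 is known to carry a fusion of KMT2A with MLLT3, and U937 a fusion of PICALM with MLLT10. Gene-level TPM does not separate a fusion from its parent genes. KMT2A, a histone methyltransferase, did not pass the test, with 5.00 and 5.27 TPM in THP-1, against 6.89 and 5.85 TPM in U937. MLLT3, an elongation factor subunit, did not pass it, with 1.80 and 1.33 TPM in THP-1, against 0.612 and 1.25 TPM in U937. PICALM, a clathrin assembly protein, did not pass it, with 16.5 and 12.4 TPM in THP-1, against 20.9 and 18.8 TPM in U937. MLLT10, a DOT1L cofactor, was higher in THP-1, with 12.2 and 14.1 TPM in THP-1, against 4.95 and 3.36 TPM in U937 (log2 difference 1.48, adjusted p = 3.94e-04 by limma). The neighbouring genes CDKN2A, MTAP and CDKN2B of chromosome 9 were near 0 in THP-1. CDKN2A, which encodes the cell cycle inhibitors p16 and ARF, had 0 TPM in both THP-1 libraries, against 82.8 and 87.3 TPM in U937 (log2 difference -6.43 ± 0.15, SE, limma adjusted p = 7.14e-08), at least 420.1-fold lower in THP-1. MTAP, methylthioadenosine phosphorylase, had 0 and 0.314 TPM in THP-1, against 55.0 and 56.4 TPM in U937 (log2 difference -5.63 ± 0.19, SE, limma adjusted p = 3.20e-07). CDKN2B, which encodes the inhibitor p15 and lies next to CDKN2A, had 0 TPM in both THP-1 libraries, against 2.15 and 1.81 TPM in U937, at least 18.1-fold lower in THP-1. CDKN1A, the p21 gene, had 36.6 and 35.3 TPM in THP-1, against 4.25 and 6.04 TPM in U937 (log2 difference 2.60). WT1, a zinc finger factor of leukaemic blasts, was at 0 in both U937 libraries and had 11.7 and 16.1 TPM in THP-1.

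The LPS receptor complex was present in unequal parts. TLR4, which binds LPS together with MD-2, had 8.50 and 9.28 TPM in THP-1, against 30.6 and 26.9 TPM in U937 (log2 difference -1.59, adjusted p = 9.78e-05 by limma). LY96, which encodes MD-2, had 2.92 and 0.419 TPM in THP-1, against 14.8 and 10.7 TPM in U937 (log2 difference -2.53). CD14, which delivers LPS to them, was found in THP-1 alone of the 2 lines, as given above. MYD88, the adaptor of most Toll-like receptors, had 48.1 and 62.5 TPM in THP-1, against 169 and 192 TPM in U937 (log2 difference -1.70 ± 0.15, SE, limma adjusted p = 3.75e-05, a call lost with all 16 libraries). TLR2, the receptor for bacterial lipopeptides, had 35.6 and 35.2 TPM in THP-1, against 3.01 and 3.15 TPM in U937 (log2 difference 3.16 ± 0.15, SE, limma adjusted p = 1.85e-06). Over 19 tested Toll-like receptors and adaptors, 9 were higher and 7 lower, with a median of 0.62. Of 17 tested NF-kB subunits, inhibitors and feedback genes, 6 were called, 4 higher and 2 lower, a share of 35.3% against 58.6% of all tested genes. NFKB1, which encodes p105 and p50, had 7.78 and 5.09 TPM in THP-1, against 12.4 and 15.5 TPM in U937 (log2 difference -1.02).

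Antigen presentation genes were more often higher than lower in THP-1 by count, but not by summed level. Of 11 tested MHC class II and antigen loading genes, 7 were higher and 2 lower. Of 14 tested genes of MHC class I and its peptide supply, 8 were higher and 3 lower. The 3 lower were B2M, HLA-B and HLA-C, the HLA-B call lost with all 16 libraries. The class II list summed to 566 and 569 TPM in THP-1, against 758 and 773 TPM in U937. Sums of the class I list were 4470 and 4242 TPM in THP-1, against 6064 and 5562 TPM in U937. IFI30 and B2M made up most of these sums in U937. CD74, the invariant chain, had 222 and 231 TPM in THP-1, against 64.8 and 82.8 TPM in U937 (log2 difference 1.61 ± 0.12, SE, limma adjusted p = 1.63e-05). HLA-DRB1, a class II beta chain, had 15.4 and 13.3 TPM in THP-1, against 3.69 and 3.44 TPM in U937 (log2 difference 1.75). IFI30, a lysosomal thiol reductase that unfolds antigens, had 50.4 and 51.4 TPM in THP-1, against 529.5 and 516 TPM in U937 (log2 difference -3.34 ± 0.086, SE, limma adjusted p = 1.18e-07). PSMB10, an immunoproteasome subunit, had 754 and 668 TPM in THP-1, against 169.9 and 222 TPM in U937 (log2 difference 1.86), while HLA-C, a class I heavy chain, had 15.4 and 14.7 TPM in THP-1, against 42.4 and 39.4 TPM in U937 (log2 difference -1.38). HLA genes are near copies of each other and vary between people, so their levels from uniquely aligned reads are uncertain.

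Fc receptor and ITAM genes differed in both directions, 7 higher and 9 lower of 19 tested. FCER1G, the common Fc receptor gamma chain, had 3123 and 3045 TPM in THP-1, against 543 and 563 TPM in U937 (log2 difference 2.48 ± 0.12, SE, limma adjusted p = 1.70e-06). TYROBP, which encodes the adaptor DAP12, had 457 and 454 TPM in THP-1, against 66.0 and 79.8 TPM in U937 (log2 difference 2.63 ± 0.65, SE, limma adjusted p = 0.00864), a call lost when any 1 of the 4 libraries was left out. The spread in this fit also held the low and uneven TYROBP values of Jurkat, 0 and 1.18 TPM, and BJAB, 8.68 and 1.06 TPM. HCST, which encodes the related adaptor DAP10, had 68.6 and 43.2 TPM in THP-1, against 412 and 437 TPM in U937 (log2 difference -2.94). FCAR, the receptor for IgA, had 0.687 and 0.394 TPM in THP-1, against 37.7 and 34.4 TPM in U937 (log2 difference -4.59), and FCER2, the low-affinity IgE receptor CD23, had 0.348 and 2.10 TPM in THP-1, against 43.1 and 45.4 TPM in U937 (log2 difference -4.47). The gamma chain was high in THP-1 and the receptor FCAR, which signals through it, high in U937.

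By count of calls, chemokine ligands and receptors were more often lower in THP-1, against 29.7% higher and 28.9% lower over all tested genes. Of 12 tested chemokines, 3 were higher and 6 lower, with a median of -1.11, and of 16 chemoattractant receptors, 3 were higher and 7 lower. Among these receptors, 4 passed the filter through U937 alone and 0 through THP-1 alone, so the 4 had to differ and the receptor count is a description. Of the chemokines, 2 passed through each line alone. CCL5, a T cell and monocyte attractant, had 33.8 and 36.6 TPM in THP-1, against 139 and 154 TPM in U937 (log2 difference -2.02). CCL22, a ligand of CCR4, had 13.9 and 9.90 TPM in THP-1, against 0 and 0.721 TPM in U937 (log2 difference 3.28). CX3CR1, the fractalkine receptor, had 38.8 and 38.6 TPM in THP-1, against 5.99 and 5.92 TPM in U937 (log2 difference 2.52), and CCR1, a receptor for CCL5, had 62.0 and 59.5 TPM in THP-1, against 13.0 and 9.21 TPM in U937 (log2 difference 2.37). GPR183, an oxysterol receptor, had 8.73 and 8.81 TPM in THP-1, against 75.4 and 71.4 TPM in U937 (log2 difference -2.93). S1PR4, a sphingosine 1-phosphate receptor, had 0 TPM in both THP-1 libraries, against 22.1 and 19.4 TPM in U937, at least 76.7-fold lower in THP-1.

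Inflammasome and interferon genes showed a mixed picture. Of 13 tested cytokine and inflammasome genes, 7 were higher and 1, IL32, was lower. CASP1, the protease that matures interleukin-1 beta, had 95.6 and 97.1 TPM in THP-1, against 16.5 and 25.3 TPM in U937 (log2 difference 2.18 ± 0.21, SE, limma adjusted p = 7.28e-05). GSDMD, the pore-forming gasdermin D, had 95.2 and 92.2 TPM in THP-1, against 38.3 and 38.5 TPM in U937 (log2 difference 1.26). Of 30 tested interferon-stimulated genes, 11 were higher and 8 lower. SAMHD1, a dNTP hydrolase that restricts retroviruses, had 139 and 149 TPM in THP-1, against 3.85 and 1.41 TPM in U937 (log2 difference 5.40 ± 0.29, SE, limma adjusted p = 3.37e-06). IFITM3, a membrane protein that blocks viral entry, had 409 and 412 TPM in THP-1, against 28.8 and 51.7 TPM in U937 (log2 difference 3.38). MX2, another antiviral effector, had 13.97 and 17.2 TPM in THP-1, against 112 and 115 TPM in U937 (log2 difference -2.79 ± 0.19, SE, limma adjusted p = 1.17e-05), and IFI6 had 16.03 and 18.3 TPM in THP-1, against 85.1 and 70.9 TPM in U937 (log2 difference -2.12).

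S100 proteins and integrins followed the same gene-by-gene pattern. Of 18 tested S100 and annexin genes, 10 were higher and 6 lower, with a median of 1.04, or 0.78 with genes at 0 in a line set at their bound. S100A8 and S100A9, the subunits of calprotectin, were both higher in THP-1, S100A8 with 288 and 261 TPM in THP-1, against 2.21 and 4.14 TPM in U937 (log2 difference 6.08 ± 0.24, SE, limma adjusted p = 6.35e-07) and S100A9 with 888 and 786 TPM in THP-1, against 20.4 and 34.4 TPM in U937 (log2 difference 4.93 ± 0.50, SE, limma adjusted p = 9.19e-05). S100P, a calcium-binding protein, had 27.6 and 28.3 TPM in THP-1, against 509 and 548 TPM in U937 (log2 difference -4.19 ± 0.34, SE, limma adjusted p = 2.76e-05). ANXA2, annexin A2, had 210.2 and 242 TPM in THP-1, against 610.0 and 629.7 TPM in U937 (log2 difference -1.46). Of 21 tested adhesion genes, 6 were higher and 9 lower. ITGA6, the laminin-binding integrin alpha chain, had 2.86 and 4.58 TPM in THP-1, against 55.2 and 46.0 TPM in U937 (log2 difference -3.47). ICAM1, a ligand of leukocyte integrins, had 4.43 and 3.57 TPM in THP-1, against 52.2 and 47.8 TPM in U937 (log2 difference -3.35). ITGAL, the alpha chain of LFA-1, which binds ICAM1, had 30.1 and 33.0 TPM in THP-1, against 15.9 and 10.5 TPM in U937 (log2 difference 1.22).

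Lysosomal genes differed at 24 of 26 tested, 12 in each direction. CTSL, cathepsin L, had 87.1 and 97.5 TPM in THP-1, against 0 TPM in both U937 libraries (log2 difference 6.54 ± 0.16, SE, limma adjusted p = 7.28e-08), at least 281-fold higher in THP-1. CTSD, cathepsin D, had 258 and 281 TPM in THP-1, against 1727 and 1537 TPM in U937 (log2 difference -2.59 ± 0.11, SE, limma adjusted p = 9.01e-07, a call lost with all 16 libraries). CTSH, an aminopeptidase, had 43.2 and 40.0 TPM in THP-1, against 142 and 149 TPM in U937 (log2 difference -1.78). Lipid carriers at 0 in both U937 libraries were APOC1, with 27.6 and 33.9 TPM in THP-1, LPL, lipoprotein lipase, with 8.96 and 9.98 TPM, and ABCA1, a cholesterol exporter, with 6.62 and 5.84 TPM. PPARG, a lipid-activated nuclear receptor, had 1.32 and 2.05 TPM in THP-1, against 16.3 and 18.3 TPM in U937 (log2 difference -2.78). Over the list of 11 tested genes, 5 were higher and 4 lower.

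Coagulation and matrix genes included several with a high level in 1 line. THBD, thrombomodulin, had 148 and 168 TPM in THP-1, against 17.6 and 16.2 TPM in U937 (log2 difference 3.14 ± 0.17, SE, limma adjusted p = 2.80e-06). F3, tissue factor, had 14.5 and 19.3 TPM in THP-1, against 2.68 and 1.00 TPM in U937 (log2 difference 2.71), and CFD, complement factor D, had 645 and 622 TPM in THP-1, against 105 and 105 TPM in U937 (log2 difference 2.58). SERPINA1, alpha-1 antitrypsin, an inhibitor of neutrophil elastase, had 0.569 and 1.19 TPM in THP-1, against 14.3 and 15.7 TPM in U937 (log2 difference -3.11). TIMP3, a metalloproteinase inhibitor, was at 0 in both U937 libraries and had 25.9 and 31.0 TPM in THP-1, while TIMP1 had 254 and 257 TPM in THP-1, against 434 and 424 TPM in U937 (log2 difference -0.75, lost without the first THP-1 library). Of 18 tested complement and coagulation genes, 6 were higher and 7 lower, and of 13 secreted protease and matrix genes, 6 were higher and 4 lower.

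**Figure D3:**
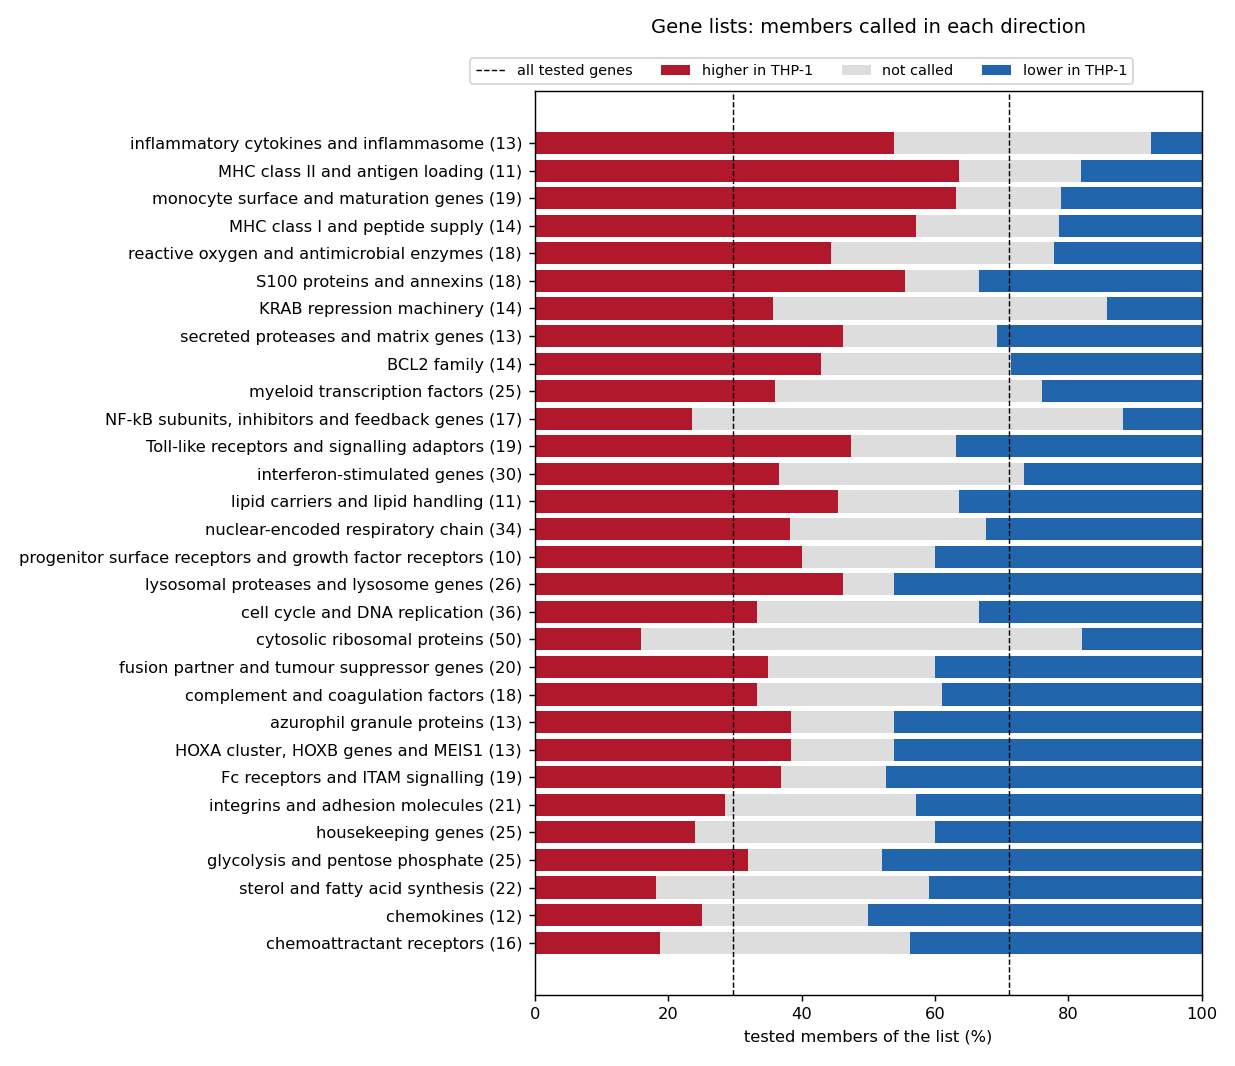
Percent of tested members of each gene list (horizontal axis) that were higher in THP-1, not called, or lower in THP-1, for the 30 lists with at least 10 tested members, whose number is in brackets. The dashed lines mark 29.7% higher and 28.9% lower over all tested genes, and cytosolic ribosomal proteins and NF-kB genes have the widest uncalled share.

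Proliferation and glucose metabolism genes differed in both directions, with a few large differences. Of 36 tested cell cycle genes, 12 were higher and 12 lower. CCND2, cyclin D2, had 0.322 and 0.435 TPM in THP-1, against 71.8 and 64.0 TPM in U937 (log2 difference -5.64 ± 0.19, SE, limma adjusted p = 3.20e-07), and CCND1, cyclin D1, had 12.2 and 12.8 TPM in THP-1, against 1.49 and 1.19 TPM in U937 (log2 difference 2.53 ± 0.20, SE, limma adjusted p = 1.95e-05). Of these D-type cyclins, CCND1 was higher and CCND2 lower in THP-1. CDC20, an activator of the anaphase-promoting complex, had 1993 and 1998 TPM in THP-1, against 519.5 and 540.2 TPM in U937 (log2 difference 1.91). PCNA, the sliding clamp of DNA polymerase, had 143 and 154 TPM in THP-1, against 795 and 777 TPM in U937 (log2 difference -2.40). MYC, the growth-promoting transcription factor, had 197 and 164 TPM in THP-1, against 568 and 565 TPM in U937 (log2 difference -1.65, a call lost with all 16 libraries). Of 25 tested glycolysis and pentose phosphate genes, 8 were higher and 12 lower. ALDOC, aldolase C, had 106 and 92.8 TPM in THP-1, against 4.21 and 2.37 TPM in U937 (log2 difference 4.58 ± 0.19, SE, limma adjusted p = 8.54e-07), and HK1, hexokinase 1, had 11.7 and 11.7 TPM in THP-1, against 82.1 and 94.3 TPM in U937 (log2 difference -2.81 ± 0.13, SE, limma adjusted p = 1.70e-06). The glucose transporters differed as well, SLC2A1 with 245 and 275 TPM in THP-1, against 84.3 and 84.9 TPM in U937 and SLC2A3 with 0.685 and 0.524 TPM in THP-1, against 15.3 and 15.4 TPM in U937.

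Mitochondrial, sterol and survival genes differed in both directions as well. Of 34 tested nuclear genes of the respiratory chain, 13 were higher and 11 lower, with a median of 0.02. UQCRQ, a subunit of complex III, had 486 and 469 TPM in THP-1, against 125 and 141 TPM in U937 (log2 difference 1.84). SDHA and SDHB, partners in complex II, went in opposite directions, SDHA with 507 and 547 TPM in THP-1, against 214 and 219.9 TPM in U937 and SDHB with 411 and 449.9 TPM in THP-1, against 763 and 777 TPM in U937. Of 22 tested sterol and fatty acid synthesis genes, 4 were higher and 9 lower, among them DHCR7, an enzyme of cholesterol synthesis, with 45.8 and 44.9 TPM in THP-1, against 145 and 179 TPM in U937 (log2 difference -1.81). Of 14 tested BCL2 family genes, 6 were higher and 4 lower. BCL2A1, an anti-apoptotic member, had 8.90 and 8.75 TPM in THP-1, against 158 and 152 TPM in U937 (log2 difference -3.99 ± 0.19, SE, limma adjusted p = 1.85e-06), and MCL1, another, had 71.9 and 61.0 TPM in THP-1, against 31.5 and 26.3 TPM in U937 (log2 difference 1.17, a call lost without either THP-1 library or the second U937 library). NCF1, a subunit of the phagocyte oxidase, had 92.2 and 93.5 TPM in THP-1, against 14.3 and 17.3 TPM in U937 (log2 difference 2.49), and GPX1, glutathione peroxidase 1, had 1654 and 1558 TPM in THP-1, against 594 and 571 TPM in U937 (log2 difference 1.46).

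Ribosomal protein and housekeeping genes show how far the lines differed in genes often taken as constant. Of 50 tested cytosolic ribosomal proteins, 8 were higher and 9 lower, 34.0% of them against 58.6% of all tested genes. RPL37 had 1144 and 1022 TPM in THP-1, against 539 and 466 TPM in U937 (log2 difference 1.11), and RPL4 had 2269 and 2241 TPM in THP-1, against 3814 and 3474 TPM in U937 (log2 difference -0.69). Ribosomal protein genes have many processed copies that can take uniquely aligned reads. Of 25 tested housekeeping genes, 6 were higher and 10 lower. HPRT1, an enzyme of purine salvage on the X chromosome, had 194 and 218 TPM in THP-1, against 515 and 461 TPM in U937 (log2 difference -1.24).

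Cancer-testis antigens and genes of the KRAB machinery were read next, and any effect of the construct on them was not tested. Of 23 listed cancer-testis genes, 17 were at 0 in all 4 libraries and 3 were tested, all higher in THP-1. Of these 3, 2 passed the filter through THP-1 alone and had to differ. MAGEB2, a melanoma antigen family member, had 192 and 169.9 TPM in THP-1, against 0 TPM in both U937 libraries (log2 difference 7.51 ± 0.21, SE, limma adjusted p = 1.45e-07), at least 514-fold higher in THP-1. PRAME, a repressor of retinoic acid receptor signalling, had 124 and 139 TPM in THP-1, against 2.19 and 2.46 TPM in U937 (log2 difference 5.31 ± 0.15, SE, limma adjusted p = 1.89e-07), and TKTL1, a transketolase-like enzyme, had 60.7 and 65.2 TPM in THP-1, against 0 TPM in both U937 libraries. ZNF10, the gene from which the KRAB domain of such fusions is commonly taken, was at 0 in both U937 libraries and had 4.02 and 5.56 TPM in THP-1, at least 37.7-fold higher. Its level was 2.40 and 2.44 TPM in WT Jurkat and 5.59 and 5.21 TPM in WT BJAB, which carry no such label. Gene-level values do not separate reads of the endogenous gene from reads of a fusion that holds part of it. TRIM28, which KRAB domains recruit, did not pass the test, with 68.0 and 80.8 TPM in THP-1, against 87.9 and 93.5 TPM in U937. CBX1, a heterochromatin protein 1, had 57.0 and 64.9 TPM in THP-1, against 31.1 and 20.1 TPM in U937 (log2 difference 1.25), and SETDB1, a histone H3 lysine methyltransferase, had 36.2 and 36.9 TPM in THP-1, against 15.8 and 22.2 TPM in U937 (log2 difference 0.93). Of 14 tested genes of this machinery, 5 were higher and 2 lower.

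Across the 220 named genes that passed the test, 161 stayed called in every alternative fit and none changed direction. With the spread estimated over all 16 libraries, which included the uneven pairs of stimulated U937 and BJAB, 44 were lost, among them SPI1, GSDMD, ITGAL, SLC2A1, SDHA and DHCR7 besides those marked above. Without 1 of the 4 THP-1 and U937 libraries, 26 were lost in at least 1 fit.

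The lymphocyte lines gave a second set of levels for the same genes. Of the 2016 genes higher in THP-1 by at least 1, 614 were under 1 TPM in at least 1 library of both Jurkat and BJAB, which is 30.5%, and of the 1642 lower in THP-1, 291 were, which is 17.7%. The share over all tested genes was 11.2%. CDKN2A had 0 TPM in both Jurkat libraries and 109 and 99.6 TPM in BJAB. EMD had 77.1 and 100.4 TPM in Jurkat and 94.7 and 91.3 TPM in BJAB, so its level of 0 in THP-1 stood apart from the other 3 lines. HMGN3 had 134 and 127 TPM in Jurkat and 381 and 348 TPM in BJAB. PYCR1 had 79.6 and 86.1 TPM in Jurkat and 127 and 155 TPM in BJAB. SPR had 53.4 and 44.0 TPM in Jurkat and 33.0 and 32.3 TPM in BJAB. GGH had 212 and 176 TPM in Jurkat and 191 and 172 TPM in BJAB. Only U937 was at 0 at HMGN3, PYCR1, SPR and GGH. CA2, PPP1R27 and ACOT2 were instead at 0 in every Jurkat and BJAB library. MFNG, at 0 in THP-1, had 126 and 116 TPM in Jurkat and 298 and 289 TPM in BJAB. SDCBP had 126 and 96.9 TPM in Jurkat and 63.9 and 55.3 TPM in BJAB, which set U937 apart as the line under 1 TPM. IL2RG, a lymphocyte receptor chain, had 493 and 483 TPM in Jurkat and 1.78 and 0.614 TPM in BJAB.

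Differences also followed the chromosomes. A position in the RefSeq gene order of GRCh38.p14 was found for 12093 of the tested genes, 99.0%. On chromosome 5, 354 of 548 genes were higher in THP-1, 64.6%, and 51 were lower, 9.31%, with a median difference of 0.80. Chromosomes 15, 20 and X leaned the other way, with 52.0%, 52.7% and 52.3% of their genes lower in THP-1 and medians of -0.53, -0.51 and -0.50. Chromosome 13 had a median of -0.49. Against the mean of Jurkat and BJAB, the median of chromosome 5 was 0.42 in THP-1 and -0.28 in U937. For chromosome 15 these medians were -0.07 in THP-1 and 0.47 in U937, and for chromosome 20 they were -0.21 in THP-1 and 0.37 in U937. Copy number was not measured here, and its part in these values was not tested.

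**Figure D4:**
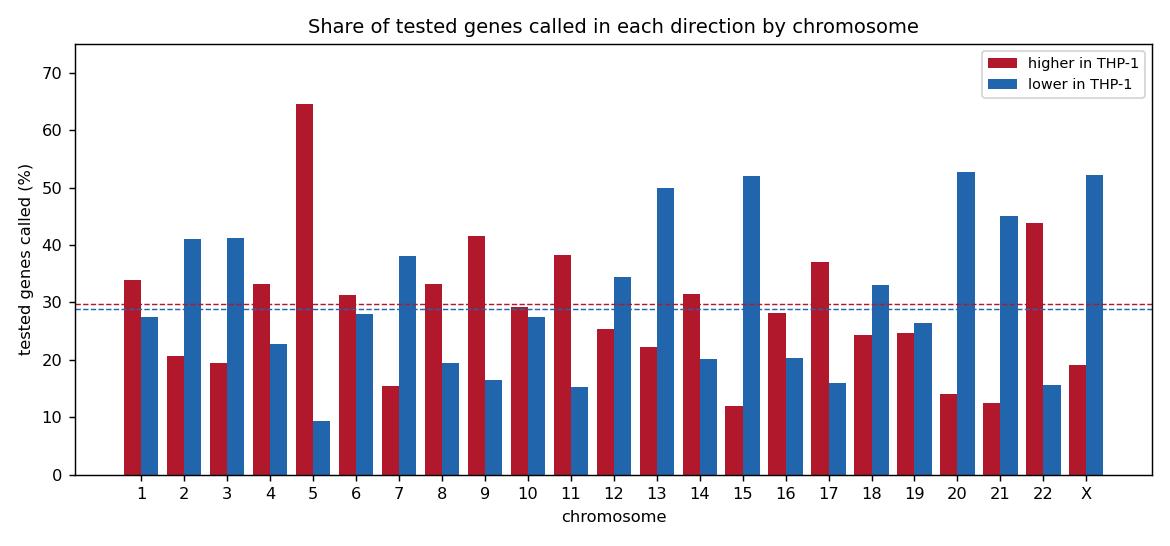
Percent of the tested genes of each chromosome (horizontal axis) that were higher (left bars) or lower (right bars) in THP-1, with dashed lines at 29.7% and 28.9% over all tested genes. Chromosome 5 reaches 64.6% higher, and chromosomes 15, 20 and X each exceed 50% lower.

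Long runs of neighbouring genes shared a direction. A run here is at least 5 tested genes in a row called the same way, and 201 were found, 101 higher and 100 lower in THP-1. The longest ran from BMP8A to FOXJ3 on chromosome 1, with 30 genes higher in THP-1 and a median difference of 2.65. The median level of its genes was 64.5 TPM in THP-1 and 5.73 TPM in U937, against 12.9 TPM in Jurkat and 10.7 TPM in BJAB. CAP1 and PPT1 lie in it. A run of 22 genes from MYO10 to NADK2 on chromosome 5 had a median of 1.59, with a median level of 32.1 TPM in THP-1 and 8.97 TPM in U937. In the other direction, 22 genes from ATRN to FERMT1 on chromosome 20, PCNA among them, had a median of -1.85. A run of 17 genes from IREB2 to IL16 on chromosome 15, with CTSH and BCL2A1, had a median of -1.47. The 10 genes from CLECL1 to TMEM52B on chromosome 12, which hold CLEC2B, CLEC2A, CLEC12A and KLRF1, had a median of -3.24 and a median level of 0.148 TPM in THP-1 and 36.0 TPM in U937. These runs were looked for after the values were seen, and overlapping or antisense genes in them may share reads.

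Zinc finger and protocadherin genes, families chosen after their values were seen, were mostly higher in THP-1 where called. Of 404 tested genes with a ZNF symbol, most of them DNA-binding repressors, 195 were higher and 45 lower in THP-1. On chromosome 19, 108 of 192 were higher and 11 lower. The run there from ZNF611 to NLRP12 had a median level of 11.5 TPM in THP-1 and 0.690 TPM in U937, against 8.67 TPM in Jurkat and 10.8 TPM in BJAB. For the run from ZNF708 to ZNF91 the levels were 7.94 TPM in THP-1 and 0.126 TPM in U937, against 8.02 TPM in Jurkat and 5.96 TPM in BJAB. U937 was thus the low line in these runs, and THP-1 lay near the lymphocyte lines. Of 42 listed genes of the protocadherin beta and gamma clusters, cell adhesion molecules best known from neurons, 12 were tested. All 12 were higher in THP-1, with a median of 2.36. The run of 18 genes that holds them had a median level of 6.09 TPM in THP-1 and 0 TPM in U937. Members that passed the filter through THP-1 alone had to differ, so this count is a description. Of 48 tested histone genes, 23 were higher and 3 lower. The libraries were primed with oligo-dT, so histone transcripts without a poly(A) tail are poorly covered by these values. Members of these families are near copies of each other, so single levels from unique alignments are uncertain.

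LPS-treated libraries gave the line difference a second time. THP-1 had received 1 µg/ml and U937 200 ng/ml LPS for 4 h, so line and dose differ together. limma called 4258 genes, 34.9%, of which 2814 were higher in THP-1 (23.0%) and 1444 lower (11.8%), and the median difference over all genes moved to 0.35. Of the 2016 genes higher by at least 1 in untreated THP-1, 1904 (94.4%) had both LPS-treated THP-1 libraries above both U937 libraries, against 38.1% of all tested genes. Of the 1642 lower in untreated THP-1, 1109 (67.5%) had both below, against 20.6% of all tested genes. The calls by limma repeated at 1753 of the 2016 (87.0%) and at 897 of the 1642 (54.6%). The first U937 LPS library stood apart from its pair, and leaving out it and the similarly uneven first stimulated BJAB library, an alternative chosen after seeing the data, gave 2891 genes higher (23.7%) and 2909 lower (23.8%) with a median of -0.0026. The shares of repeated calls were then 88.3% of the genes higher by at least 1 and 83.7% of those lower. Without the second U937 LPS library, 6600 genes were called, 5044 higher and 1556 lower in THP-1.

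The largest differences were there after LPS too. CA2 had 944 and 827 TPM in LPS-treated THP-1 and 0 TPM in both LPS-treated U937 libraries. HMGN3 had 327 and 316 TPM in LPS-treated THP-1 and 0 TPM in both LPS-treated U937 libraries. BEX1 had 0.607 and 0 TPM in LPS-treated THP-1 and 1273 and 938 TPM in LPS-treated U937. All 30 genes with the largest untreated differences kept the lines apart in the LPS libraries. ICAM1, lower in untreated THP-1, had 62.3 and 39.0 TPM in LPS-treated THP-1 and 24.8 and 116 TPM in LPS-treated U937, where the libraries overlapped. MYC had 169 and 181 TPM in LPS-treated THP-1 and 115 and 547 TPM in LPS-treated U937, and its libraries overlapped too. CTSD overlapped between the lines after LPS, and so did MYD88, with 52.5 and 44.9 TPM in THP-1 and 46.8 and 167 TPM in U937. At ICAM1, MYC and MYD88 the second U937 LPS library lay above both THP-1 libraries, and the first, which stood apart from it, did not. The test for an LPS response that differed between the lines called only MIR221 and SNORD124, which are small RNA genes. ICAM1, MYC, CTSD and MYD88 did not pass it, so a loss of their line difference after LPS was not shown.

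**Figure D5:**
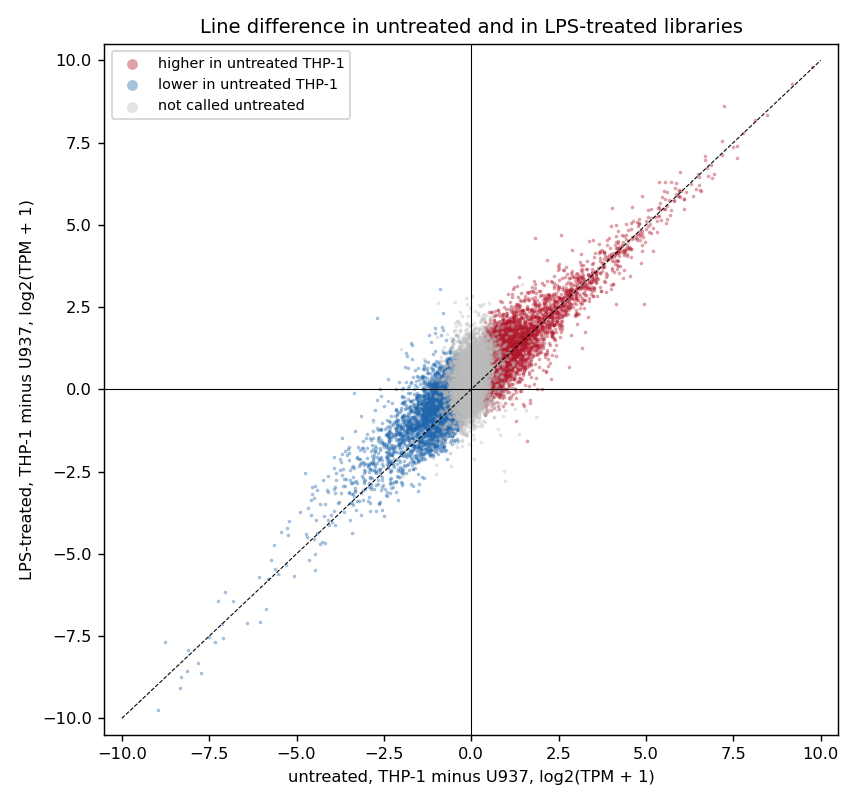
log2 difference, THP-1 minus U937, of each tested gene in LPS-treated libraries (vertical axis) against untreated libraries (horizontal axis), coloured by the untreated call; the dashed line marks equal differences. Genes far from 0 lie along the line, and the cloud around 0 is shifted up by the LPS median of 0.35.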

How the data were processed

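RNA of 16 libraries from 4 human cell lines was made into SmartSeq2 libraries primed with oligo-dT, per the labels' protocols, and aligned with TopHat2 to hg19, per the submitters' processing notes. The program that counted reads was not given in the sources used here, nor was the annotation. Values deposited by the authors were TPM per gene from unique alignments, so genes with near copies may be undercounted, and strand handling is not stated. Each library summed to 1000000 TPM over 27311 genes. Whole reads were recovered from the TPM steps, at a tolerance of 0.001 reads, for 93.5% of the 19092 genes above 0, and they gave the depth and the floors, which cover counting error only.

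The main test was limma 3.58.1 in R 4.3.3 with a trend over level, two-sided, on log2(TPM + 1), over the 8 untreated libraries (4 residual degrees of freedom), for genes with at least 1 TPM in at least 2 of the 4 THP-1 and U937 libraries. p-values were adjusted by Benjamini-Hochberg over all 12215 genes at a threshold of 0.05. The LPS comparison used all 16 libraries. An exact permutation test of 2 against 2 libraries cannot go below p = 0.333 and was not used.

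Named genes were, first, the 15 largest log2 differences in each direction among called genes with at least 20 TPM in the higher line. These genes also had to have both libraries of one line above both of the other. Added to them were the 6 largest TPM differences in each direction and a short set of genes known from these lines. Up to 3 called members of each of 39 lists in each direction with at least 5 TPM were named too. Small RNA genes were left out of the largest differences, and a few other genes are not reported here. The members and lists were chosen with earlier results of these data known. Alternatives covered the pseudocount, the filter, scaling, the trend, a replicate block, voom on recovered reads, the libraries in the fit and leaving out each library.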

Additional observations from a re-analysis of the deposited data

How the results depend on the processing

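The count of 7159 untreated calls stayed within 1.5 times of itself under both other pseudocounts (6717 to 7215), both other filters (5912 to 7502), quantile normalization (7372), voom on recovered reads (7163), median-of-ratios scaling (7150), no trend (6979) and the 4 libraries alone (7433). It moved to 3624 with all 16 libraries in the fit and to 3658 with a minimum log2 difference of 1. Leaving out single libraries gave 5503 to 7349 calls. The LPS count of 4258 moved to 1380 with its 4 libraries alone, and leaving out single libraries gave 2962 to 6600. The higher and lower split of the LPS calls, 2814 and 1444, became 2550 and 2079 with median-of-ratios scaling, 2400 and 2711 with quantile normalization, and 1953 and 1804 without the first U937 LPS library. It went the other way to 1040 and 340 with the 4 libraries alone, 2103 and 884 when the second LPS-treated THP-1 library was dropped, and 5044 and 1556 when the second LPS-treated U937 library was. The causes of these shifts were not tested. The labels do not say that replicate numbers pair libraries, and same-numbered deviations correlated at -0.053 untreated and -0.166 after LPS. With the replicate number as a block, 7025 untreated and 4195 LPS genes were called, and no named gene lost its call. With a pseudocount of 0.1, 15 named genes lost theirs. With 2 libraries a line, levels under a few TPM rest on few reads.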
